A study of Homo sapiens with 6 samples.

Results

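Matrix metalloproteinases (MMPs), the tissue inhibitors of metalloproteinases (TIMPs) and the urokinase system were examined in BT-549 cells silenced for PBRM1. The genes are 5 MMPs (MMP1, MMP2, MMP3, MMP9 and MMP14), 3 TIMPs (TIMP1, TIMP2 and TIMP3), the urokinase gene PLAU and the urokinase receptor gene PLAUR. They were chosen by symbol for their function, with earlier results of these data known. All 10 were found among the 37887 rows of the RNA-seq count table. BT-549 is an established human triple-negative breast cancer (TNBC) cell line, and PBRM1 encodes the bromodomain protein that directs the PBAF form of the SWI/SNF remodeler to chromatin. RNA-seq was performed on 3 libraries labelled control shRNA (shCTL), from cells given 0.1% DMSO as vehicle, and on 3 libraries labelled shPBRM1, from cells given 500 ng/ml doxycycline (DOX). The titles name a control shRNA, whereas the series design and the treatment labels describe a single line that carries a DOX-inducible PBRM1 shRNA vector and received vehicle or DOX, so that the control either lacks the PBRM1 shRNA or carries it switched off. Because DOX went with the silencing, the effects of the drug and of the shRNA cannot be told apart, only 1 shRNA in 1 cell line was used, and the duration of the treatment is not given in the sources used here. The comparison asks which transcripts of this proteolytic system were higher or lower after PBRM1 silencing.

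MMPs are zinc-dependent endopeptidases that cleave collagens and other matrix proteins. They are made as inactive proenzymes, and TIMPs block the active enzymes by binding to the catalytic site. Urokinase, bound to its receptor at the cell surface, converts plasminogen to plasmin, a broad protease that degrades fibrin and can activate several proMMPs. In breast cancer these enzymes are known mainly for matrix degradation at the invading edge, where tumor and stromal cells both produce them. RNA levels do not report secretion, activation or inhibition of the proteins.

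To show the sequence around the start sites of genes that moved in different directions, RefSeq promoter windows on build GRCh38.p14 were read for the members that have one. Of the 10 genes, 5 had a window, 6 windows in all since PLAU has 2 start sites, and each window holds 250 bases before and 50 bases after the start. The windows of PLAU, PLAUR and MMP14, which rose in shPBRM1, and of TIMP1 and TIMP3, which fell, are printed 5′ to 3′ on the gene's own strand. Capitals mark an AP-1 site (TGANTCA) or a GC box (GGGCGG) found on either strand.
PLAU, downstream start (chr10:73910882-73911181, plus strand): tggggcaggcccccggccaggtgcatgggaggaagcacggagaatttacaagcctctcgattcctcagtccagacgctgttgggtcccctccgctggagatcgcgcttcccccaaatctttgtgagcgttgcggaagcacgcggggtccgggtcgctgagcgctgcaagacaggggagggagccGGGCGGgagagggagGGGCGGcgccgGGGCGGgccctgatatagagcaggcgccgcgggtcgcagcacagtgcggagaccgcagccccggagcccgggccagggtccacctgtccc
PLAUR (chr19:43670120-43670419, minus strand): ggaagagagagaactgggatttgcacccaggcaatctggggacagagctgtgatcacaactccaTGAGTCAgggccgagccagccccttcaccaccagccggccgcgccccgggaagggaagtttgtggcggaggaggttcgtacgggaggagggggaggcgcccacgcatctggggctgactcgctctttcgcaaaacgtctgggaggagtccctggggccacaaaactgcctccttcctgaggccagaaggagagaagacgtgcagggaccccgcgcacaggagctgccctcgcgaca
MMP14 (chr14:22836335-22836634, plus strand): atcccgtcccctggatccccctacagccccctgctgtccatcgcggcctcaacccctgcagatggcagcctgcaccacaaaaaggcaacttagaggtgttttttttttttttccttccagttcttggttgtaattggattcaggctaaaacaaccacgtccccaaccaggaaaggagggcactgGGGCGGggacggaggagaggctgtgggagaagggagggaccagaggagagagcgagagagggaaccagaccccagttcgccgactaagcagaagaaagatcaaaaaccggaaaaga
TIMP1 (chrX:47582186-47582485, plus strand): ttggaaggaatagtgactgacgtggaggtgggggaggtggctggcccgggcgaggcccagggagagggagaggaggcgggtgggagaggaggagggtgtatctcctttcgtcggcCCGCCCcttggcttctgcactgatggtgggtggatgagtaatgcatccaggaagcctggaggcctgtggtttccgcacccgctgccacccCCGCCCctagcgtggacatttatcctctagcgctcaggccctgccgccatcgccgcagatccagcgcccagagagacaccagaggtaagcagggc
TIMP3 (chr22:32801455-32801754, plus strand): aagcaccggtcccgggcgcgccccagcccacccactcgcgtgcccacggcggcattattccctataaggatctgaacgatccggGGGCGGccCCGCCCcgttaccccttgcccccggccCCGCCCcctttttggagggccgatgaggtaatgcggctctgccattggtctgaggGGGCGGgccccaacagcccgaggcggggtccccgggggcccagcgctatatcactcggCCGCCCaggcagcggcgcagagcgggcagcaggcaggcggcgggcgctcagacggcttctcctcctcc
The AP-1 letters, bound by FOS and JUN dimers, were found in the PLAUR window only, at -186 bases from the start, and in 7.71% of the 35116 RefSeq windows of the same length. GC boxes, which SP1 family factors bind, numbered 5 in TIMP3, 3 at the downstream PLAU start, 2 in TIMP1 and 1 in MMP14, and 45.0% of all windows held at least 1. No window of these genes, the upstream PLAU start (chr10:73910360-73910659) included, held TATAAA, or GAAA repeated after any 2 bases as in interferon-stimulated response elements, letters that occur in 11.5% and 3.57% of all windows. The motifs searched do not overlap one another. These matches describe letters in a window, and no binding was measured.

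The libraries held between 36429395 and 65096297 counts, at which 3 counts, taken as the floor of detection, equal 0.0471 to 0.0804 CPM (counts scaled to library size with TMM factors), a limit that covers counting error only. PBRM1 itself fell from 158 ± 2.30 to 41.9 ± 1.22 CPM (SD, n = 3), for a log2 fold change of -1.91 (SE 0.027, adjusted p = 9.98e-23). Of the markers for the labelled cell type, ESR1 had at most 2 counts and PGR at most 12 in any library, ERBB2 lay between 1906 and 3161 counts, and the mesenchymal markers VIM, CDH2, ZEB1 and FN1 had group means of 135 to 769.8 CPM. All 4 of them moved, VIM and CDH2 upward and ZEB1 and FN1 downward, FN1 from 554 to 221 CPM. The 3 epithelial markers summed to 10.1 to 10.4 CPM in shCTL and 3.36 to 3.83 CPM in shPBRM1, with CDH1 and CLDN4 lower. The 4 leukocyte markers summed to 1.04 to 1.38 and 0.832 to 0.925 CPM, with PTPRC lower, CD14 higher and CD3E at 0, and the 3 endothelial markers to at most 0.496 CPM. Whether these markers have a part in the results was not tested. Among the 15450 genes kept by the filter on low counts, 64.7% had an adjusted p under 0.05 (31.5% higher and 33.2% lower in shPBRM1), 12.6% also changed by over 2-fold (2.87% higher and 9.68% lower), and the groups did not overlap for 68.3%. Throughout, adjusted p-values come from edgeR (quasi-likelihood fit, Benjamini-Hochberg over all tested genes), and the median log2 fold change of all of them was -0.008.

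Of the 10 genes, 9 passed the filter on low counts and MMP3 did not. At an adjusted p under 0.05, MMP9, MMP14, PLAU and PLAUR were higher in shPBRM1 and MMP1, MMP2, TIMP1 and TIMP3 were lower, which makes 8 of the 9 tested genes, beside 64.7% of all tested genes. TIMP2 did not pass. With a fold change over 2 added, 4 remained, MMP9 upward and MMP1, MMP2 and TIMP3 downward, beside 12.6% of all tested genes. Both directions occurred among the MMPs, and the median log2 fold change over the 9 tested genes was 0.02. Nothing particular to the list follows from these shares.

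**Figure D1:**
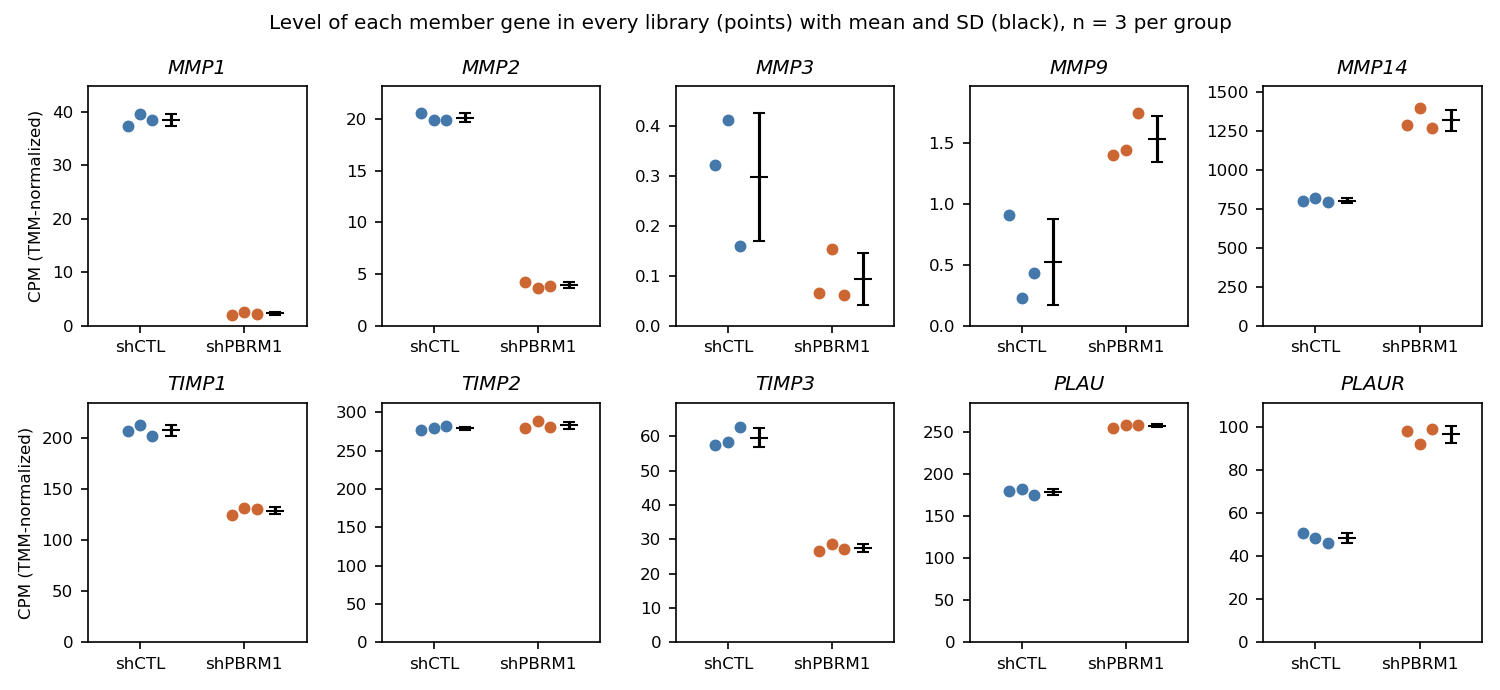
TMM-normalized CPM of the 10 genes in each library (points, 3 per group) with the mean and SD in black; each panel has its own axis from 0. The groups are apart for every gene but TIMP2, though only narrowly for MMP3, and for 68.3% of all tested genes. MMP1 is near 38.4 CPM in shCTL and 2.34 CPM in shPBRM1, and MMP3 lies under 0.5 CPM throughout.

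MMP1, the interstitial collagenase that cleaves fibrillar collagens, showed the largest change of the 10 genes. MMP1 counts were 1392, 1925 and 1936 in shCTL and 127, 102 and 145 in shPBRM1, or 37.3, 39.6 and 38.4 against 2.12, 2.62 and 2.28 CPM. All 3 silenced libraries lay far below all 3 controls, and the spread within each group was small beside the gap between them. The mean fell from 38.4 ± 1.15 to 2.34 ± 0.258 CPM (SD, n = 3), to 6.08% of the control and 16.4-fold lower. The log2 fold change was -4.06 (SE 0.093, adjusted p = 9.18e-22), and it stayed between -4.12 and -3.98 when each library was left out in turn. Since these are bulk libraries, fewer cells with the transcript and less transcript per cell cannot be told apart, here and for the other genes.

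MMP1 lies on chromosome 11 (chr11:102789920-102798160, minus strand, GENCODE v29 annotation of GRCh38) in a cluster of 9 MMP genes, all on the minus strand. The other members of the cluster were scarcely detected. MMP7, MMP20 and MMP27 had no count in any library, MMP8 and MMP12 had 4 counts each over the 6 libraries, MMP10 had 42, MMP3 54 and MMP13 94, against 5627 for MMP1. MMP1 took 97.4% of the cluster's counts in shCTL (5253, with 140 from the others) and 86.6% in shPBRM1 (374, with 58 from the others).

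MMP3, a stromelysin that cleaves proteoglycans and can activate other proMMPs, is the neighbour of MMP1 in this list (chr11:102835801-102843803, minus strand). Its counts were 12, 20 and 8 in shCTL and 4, 6 and 4 in shPBRM1. In CPM these are 0.322, 0.411 and 0.159 against 0.0666, 0.154 and 0.0628, means of 0.297 ± 0.128 and 0.0945 ± 0.0517 (SD, n = 3). The groups sat close together, with the highest silenced library just under the lowest control. MMP3 was not tested here because of its low counts. Without the filter its log2 fold change was -1.70 (adjusted p = 0.0204) and with DESeq2 it was -1.71 (adjusted p = 0.0537), so that the call depends on the processing.

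The gelatinases, MMP2 and MMP9, which cleave denatured and basement membrane collagen, moved in opposite directions. MMP2 (chr16:55389700-55506691, plus strand) had 768, 966 and 1002 counts in shCTL and 254, 144 and 247 in shPBRM1. In CPM it was at 20.6, 19.9 and 19.9 against 4.23, 3.70 and 3.88. The groups were far apart, and within a group the libraries differed by less than 1 CPM. Its mean fell from 20.1 ± 0.408 to 3.94 ± 0.271 CPM (SD, n = 3), 5.11-fold lower, with a log2 fold change of -2.34 (SE 0.059, adjusted p = 4.40e-17).

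MMP9 (chr20:46008908-46016561, plus strand) was a low transcript in both groups. It had 34, 11 and 22 counts in shCTL and 84, 56 and 111 in shPBRM1, or 0.911, 0.226 and 0.436 against 1.40, 1.44 and 1.74 CPM. The 3 silenced libraries were all above the controls, but the controls were widely spread, with shCTL replicate 1 well above the other two. The mean rose from 0.524 ± 0.351 to 1.53 ± 0.187 CPM (SD, n = 3), 2.91-fold, with a log2 fold change of 1.61 (SE 0.54, adjusted p = 1.21e-04). The estimate was 2.19 without shCTL replicate 1 and 1.23 without shCTL replicate 2. Tested against a minimum of 2-fold with edgeR's glmTreat, MMP9 no longer passed.

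MMP14, the membrane-anchored MMP that cleaves collagen at the cell surface and activates proMMP2, was the most abundant of the 10 genes and rose. MMP14 (chr14:22836557-22849027, plus strand) had 29827, 39795 and 40002 counts in shCTL and 77377, 54240 and 80803 in shPBRM1. Its levels were 799, 819 and 793 CPM in the control and 1289, 1394 and 1268 CPM in the silenced libraries. Each silenced library exceeded each control by more than the range within either group. The mean went from 804 ± 13.3 to 1317 ± 67.4 CPM (SD, n = 3), 1.64-fold, with a log2 fold change of 0.71 (SE 0.044, adjusted p = 1.40e-13).

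**Figure D2:**
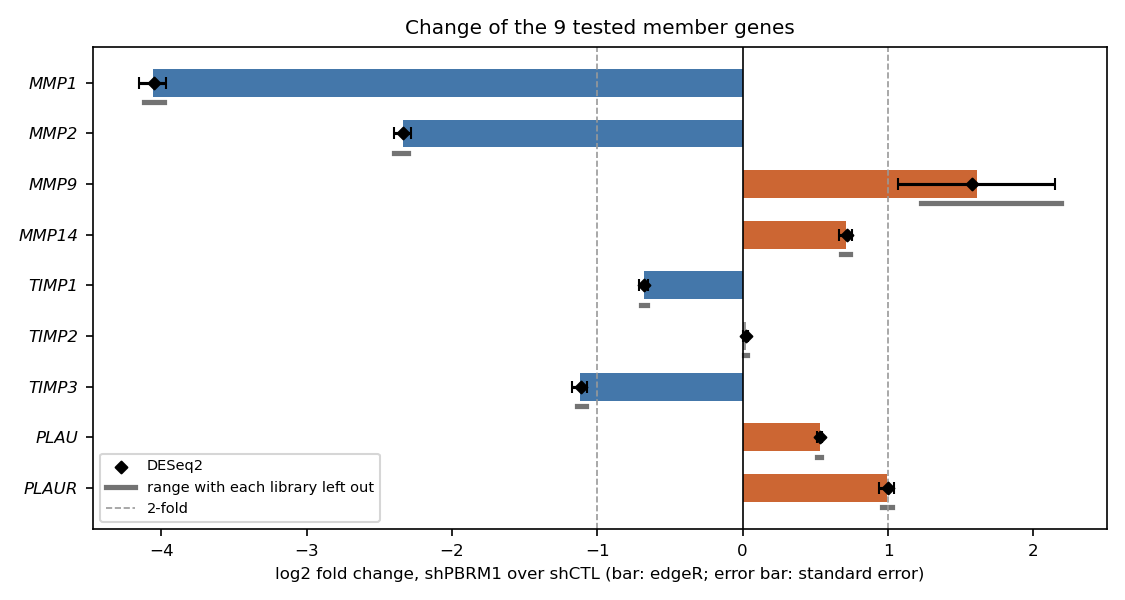
log2 fold change of shPBRM1 over shCTL for the 9 tested genes (bars: edgeR; error bars: SE between replicates; diamonds: DESeq2; grey lines: range when each library is left out). Blue bars are lower, orange bars higher and the grey bar did not pass an adjusted p of 0.05; MMP1 and MMP2 reach -4.06 and -2.34, and MMP9, at 1.61, has the widest range.

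The 3 TIMPs were tested, and TIMP1 and TIMP3 fell, beside 33.2% of all tested genes that were lower, while TIMP2 did not pass. TIMP1, a secreted inhibitor of most MMPs that also forms a complex with proMMP9, lies on the X chromosome (chrX:47582313-47586789, plus strand). It had 7740, 10356 and 10204 counts in shCTL and 7524, 5140 and 8318 in shPBRM1. Scaled to library size, TIMP1 was at 207, 213 and 202 CPM against 125, 132 and 131 CPM. The gap between the groups was many times the SD of either. TIMP1 fell from 208 ± 5.36 to 129 ± 3.53 CPM (SD, n = 3), 1.61-fold lower, with a log2 fold change of -0.68 (SE 0.031, adjusted p = 1.05e-13).

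TIMP3, which is held in the extracellular matrix and also inhibits several ADAM and ADAMTS proteases, fell more than TIMP1. TIMP3 (chr22:32801701-32863043, plus strand) had 2149, 2842 and 3174 counts in shCTL and 1594, 1120 and 1739 in shPBRM1. Its levels were 57.6, 58.5 and 62.9 CPM against 26.6, 28.8 and 27.3 CPM. All silenced libraries were at about the same level, below the lowest control. The mean fell from 59.7 ± 2.87 to 27.5 ± 1.13 CPM (SD, n = 3), 2.17-fold lower, with a log2 fold change of -1.12 (SE 0.052, adjusted p = 3.48e-15).

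TIMP2, which inhibits MMPs and, bound to MMP14, serves as the receptor for proMMP2, did not pass the test. TIMP2 (chr17:78852977-78925387, minus strand) had 10344, 13541 and 14216 counts in shCTL and 16773, 11237 and 17915 in shPBRM1, or 277, 279 and 282 against 279, 289 and 281 CPM. The groups overlapped. The means were 279 ± 2.43 and 283 ± 4.98 CPM (SD, n = 3), and the log2 fold change was 0.02 (SE 0.016, adjusted p = 0.661), or -0.03 when counts were scaled by library size alone. The protein partners MMP14, TIMP2 and MMP2 therefore showed 3 different results at the RNA level, higher, not passed and lower.

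Urokinase and its receptor were both higher in shPBRM1, each by under 2-fold. PLAU (chr10:73909177-73917497, plus strand) had 6713, 8857 and 8835 counts in shCTL and 15333, 10063 and 16515 in shPBRM1. In CPM it was at 179.9, 182 and 175 against 255, 259 and 259. The silenced libraries lay close to each other and clear of the controls. PLAU rose from 179 ± 3.57 to 258 ± 2.0 CPM (SD, n = 3), 1.44-fold, with a log2 fold change of 0.53 (SE 0.018, adjusted p = 8.00e-12).

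PLAUR encodes the glycolipid-anchored receptor that focuses urokinase at the cell surface. PLAUR (chr19:43646095-43670547, minus strand) had 1902, 2357 and 2340 counts in shCTL and 5902, 3587 and 6330 in shPBRM1. Its levels were 51.0, 48.5 and 46.4 CPM in the control and 98.3, 92.2 and 99.3 CPM in the silenced libraries. There was no overlap, and the lowest silenced library stood well above the highest control. PLAUR rose from 48.6 ± 2.28 to 96.6 ± 3.87 CPM (SD, n = 3), 1.99-fold, with a log2 fold change of 0.99 (SE 0.052, adjusted p = 7.87e-16). It lay just outside the 2-fold minimum, which it passed without shCTL replicate 1 or without shPBRM1 replicate 2, and the range with each library left out was 0.96 to 1.03.

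Several of these genes overlap another annotated gene, and whether reads were counted by strand is not given in the sources used here. C10orf55, opposite to PLAU, had 95, 92 and 134 counts in shCTL and 185, 132 and 180 in shPBRM1. SYN1, opposite to TIMP1, had between 93 and 228 counts. Both had small counts beside those of PLAU or TIMP1. SLC12A5-AS1, opposite to MMP9, had 2 to 13 counts, which is not small beside the 11 to 111 counts of MMP9. SYN3, opposite to TIMP3, and WTAPP1, opposite to MMP1 and MMP3, had at most 6 counts. On the same strand, CEP295NL overlaps TIMP2 and had 9 to 27 counts, and RN7SL368P overlaps PLAUR and had 4 to 15. Other genes that overlap MMP2 or TIMP2 have no row in the count table.

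To compare the genes with each other, CPM was divided by the length of each gene's annotated exons. In shCTL the order per kb of exon was MMP14 (180 ± 2.98), TIMP1 (135 ± 3.48), PLAU (60.7 ± 1.21), TIMP2 (49.6 ± 0.431), MMP1 (19.5 ± 0.585), TIMP3 (13.0 ± 0.624), PLAUR (10.9 ± 0.512), MMP2 (4.08 ± 0.0828), MMP9 (0.225 ± 0.150) and MMP3 (0.145 ± 0.0626), all CPM per kb with SD over 3 libraries. Only the neighbours MMP9 and MMP3 overlapped in that order. In shPBRM1, MMP14 still led, at 295 ± 15.1 CPM per kb. PLAU (87.4 ± 0.677) and TIMP1 (83.9 ± 2.29) changed places, although without overlap, PLAUR (21.7 ± 0.868) moved above TIMP3 (5.98 ± 0.247), and MMP1 dropped to 1.19 ± 0.131, next to MMP2 at 0.798 ± 0.0548 and MMP9 at 0.654 ± 0.0801. MMP14 was thus the leading MMP transcript in both groups, and the secreted collagenase and gelatinases all lay under 2 CPM per kb in the silenced cells. Where the longest transcript replaced the exon union, the order changed in several places. TIMP1 then stayed above PLAU in shPBRM1 (118 against 97.0 CPM per kb), and TIMP2 lay above PLAU in shCTL (76.4 against 67.4). PLAUR, at 30.2 and 60.0 CPM per kb, was already above MMP1 and TIMP3 in shCTL, so that its move above TIMP3 depends on the length used. MMP1 and MMP2 then overlapped in shPBRM1.

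**Figure D3:**
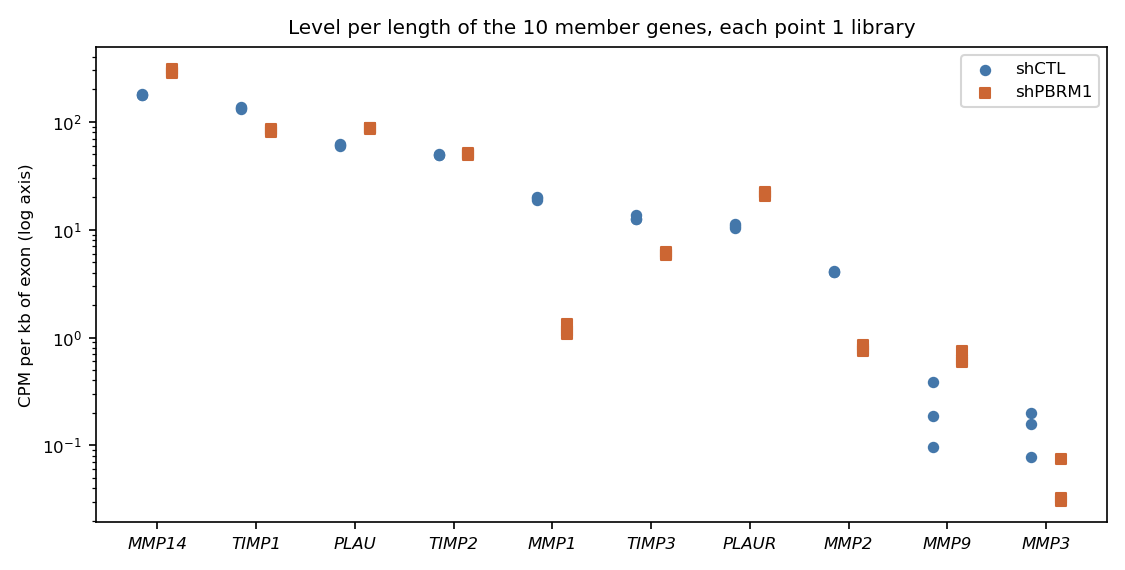
CPM per kb of exon on a log axis, 1 point per library, for the 10 genes ordered by their shCTL mean (circles: shCTL; squares: shPBRM1). MMP14 leads in both groups (180 and 295 CPM per kb), while MMP1 drops from 19.5 to 1.19 CPM per kb.

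Ratios within a library do not depend on its scaling, and they were computed as log2 of CPM, with no test. The ratio of MMP14 to TIMP2 was 1.53, 1.56 and 1.49 in shCTL and 2.21, 2.27 and 2.17 in shPBRM1, a difference of 0.69. The ratio of PLAU to PLAUR was 1.82, 1.91 and 1.92 against 1.38, 1.49 and 1.38, a difference of -0.47, so the receptor transcript gained on its ligand although both rose. MMP1 to TIMP1 went from -2.48, -2.43 and -2.40 to -5.89, -5.66 and -5.84, a difference of -3.36, so that the enzyme fell by far more than the inhibitor. For 1 further pair, chosen after its values were seen, MMP9 to MMP2 was -4.50, -6.46 and -5.51 against -1.60, -1.36 and -1.15, a difference of 4.12. All 4 ratios were apart between the groups in every library.

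**Figure D4:**
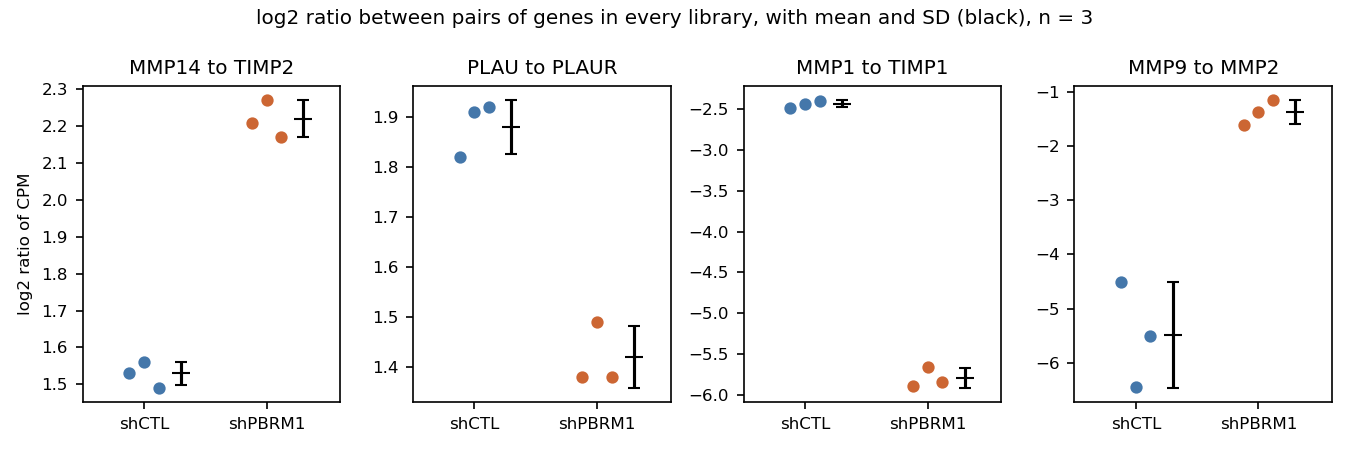
log2 ratio of CPM between pairs of genes in each library (points) with the mean and SD in black, 3 libraries per group; each panel has its own axis, which does not start at 0. MMP14 to TIMP2 and MMP9 to MMP2 are higher in shPBRM1, with differences of 0.69 and 4.12, and PLAU to PLAUR and MMP1 to TIMP1 are lower, with differences of -0.47 and -3.36.

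To place these genes in their system, 79 other genes in 6 lists were examined, of which 52 passed the filter on low counts. Of these 52, 19 were higher, 23 were lower and 10 did not pass, beside 64.7% called among all tested genes. Their median log2 fold change was 0.02. With DESeq2, 21 of the 79 genes were higher and 19 were lower.

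Among 18 other MMPs, 8 were tested, 1 rose, 4 fell and 3 did not pass, with a median log2 fold change of -0.34, the same with MMP28 set at its bound. Of all tested genes, 31.5% were higher and 33.2% lower. MMP16, like MMP14 a membrane-anchored enzyme able to activate proMMP2, had 3164, 3872 and 4447 counts in shCTL and 15173, 9549 and 15965 in shPBRM1. It rose from 84.2 ± 4.29 to 249.5 ± 3.78 CPM (SD, n = 3), for a log2 fold change of 1.57 (SE 0.045, adjusted p = 7.17e-20). Per kb of exon MMP16 went from 6.95 to 20.6 CPM, so that MMP14 still exceeded it in both groups. The membrane-type MMP24 fell from 1.93 to 1.10 CPM (log2 fold change -0.80, adjusted p = 0.00118), and MMP15, also membrane-anchored, was at 5.89 and 5.04 CPM (log2 fold change -0.23, adjusted p = 0.0648). MMP13, a collagenase of the chromosome 11 cluster, had 10, 24 and 30 counts against 8, 14 and 8, and its log2 fold change of -1.27 (adjusted p = 0.0212) did not pass with DESeq2 (adjusted p = 0.0910). MMP28, picked once its counts were known, had 14, 19 and 14 counts in shCTL and none in any shPBRM1 library, at least 5.99-fold lower at a floor of 3 counts per library, or at least 3.06-fold lower with counts divided by 2. MMP10 and MMP12 were not tested, with at most 14 and 2 counts in a library. The remaining fall was that of MMP11 (log2 fold change -0.41, adjusted p = 0.0257), whose groups overlapped. Like MMP13, it did not pass with DESeq2 (adjusted p = 0.0859).

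Of 4 other inhibitors of MMPs, 2 were tested. RECK, a membrane-anchored inhibitor, was at 25.1 and 25.8 CPM and did not pass (log2 fold change 0.04, adjusted p = 0.578; -0.01 with library size alone). TFPI2, a matrix-associated serine protease inhibitor that blocks plasmin (picked with its value known), rose from 33.8 ± 1.87 to 75.9 ± 2.09 CPM (SD, n = 3), for a log2 fold change of 1.16 (SE 0.051, adjusted p = 2.61e-16). TIMP4 had at most 7 counts in a library and was not tested.

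In the plasminogen system, all 10 tested of 18 listed partners changed at an adjusted p under 0.05, 5 in each direction and none by over 2-fold, beside 64.7% called and 12.6% called at over 2-fold among all tested genes. SERPINE2, also called protease nexin, an inhibitor of urokinase and thrombin, fell from 690.1 ± 6.93 to 475 ± 4.91 CPM (SD, n = 3), for a log2 fold change of -0.54 (adjusted p = 1.15e-11). SERPINB2 had no count in any library.

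Among the surface receptors in this list, LRP1, an endocytic receptor for protease and inhibitor complexes, went from 404 ± 16.3 to 229 ± 6.14 CPM (SD, n = 3), for a log2 fold change of -0.82 (adjusted p = 3.61e-14). MRC2, a collagen receptor that associates with uPAR (picked with its value known), went from 96.6 to 48.8 CPM (log2 fold change -0.98, adjusted p = 1.30e-15). The plasminogen receptor subunits ANXA2 and S100A10 rose, from 691 to 812 and from 179 to 233 CPM, with log2 fold changes of 0.23 (adjusted p = 2.13e-05) and 0.38 (adjusted p = 4.78e-09). PLAT, the tissue-type plasminogen activator, rose from 4.79 ± 0.702 to 6.48 ± 0.302 CPM (SD, n = 3; log2 fold change 0.42, adjusted p = 0.00214). Plasminogen itself, PLG, had at most 2 counts in a library.

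Among 10 activators and surface partners of MMPs, 9 were tested, 2 rose, 4 fell and 3 did not pass. Of all tested genes, 64.7% were called, and 12.6% were called at over 2-fold. ITGAV, the alpha chain of the vitronectin receptor, was the single member with a change of over 2-fold, from 188 ± 0.850 to 430.2 ± 13.8 CPM (SD, n = 3), for a log2 fold change of 1.19 (adjusted p = 1.27e-17). ITGB3, a beta chain that pairs with it (picked with its value known), fell from 10.6 to 6.76 CPM (log2 fold change -0.64, adjusted p = 1.50e-06). BSG, an inducer of MMP expression on tumor cells, fell from 1148 to 917 CPM (log2 fold change -0.33, adjusted p = 2.55e-07), and CTSB, a cysteine protease that can activate prourokinase, fell from 4775 to 4121 CPM (log2 fold change -0.21, adjusted p = 1.17e-06).

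The related ADAM and ADAMTS proteases also moved both ways. Of 11 ADAM genes, 9 were tested, 5 rose and 2 fell, and only ADAM8, with 19 to 22 counts in shCTL and 9 in each shPBRM1 library, changed by over 2-fold (log2 fold change -1.41, adjusted p = 0.00569). Of 18 ADAMTS genes, 14 were tested, 5 rose and 8 fell, and 7 of these changed by over 2-fold, beside 64.7% and 12.6% of all tested genes. Among the falls, those of ADAMTS5 and ADAMTS16 did not pass with DESeq2 (adjusted p = 0.106 and 0.0903). ADAMTS12 rose from 34.5 ± 1.46 to 142 ± 4.65 CPM (SD, n = 3), for a log2 fold change of 2.05 (SE 0.045, adjusted p = 3.66e-22). ADAMTS3, which processes procollagen, rose from 13.3 ± 1.73 to 44.9 ± 3.26 CPM (log2 fold change 1.75, adjusted p = 1.97e-15). ADAMTS15, an aggrecan-degrading enzyme, fell from 92.0 ± 1.90 to 29.1 ± 1.28 CPM (log2 fold change -1.66, adjusted p = 6.87e-20). The other changes of over 2-fold, named after their values were seen, were a rise of ADAMTS4 (log2 fold change 1.22) and falls of ADAMTS7 (-2.33), ADAMTS13 (-1.57) and ADAMTS17 (-3.00), of which ADAMTS7 and ADAMTS17 had at most 30 counts in any library.

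**Figure D5:**
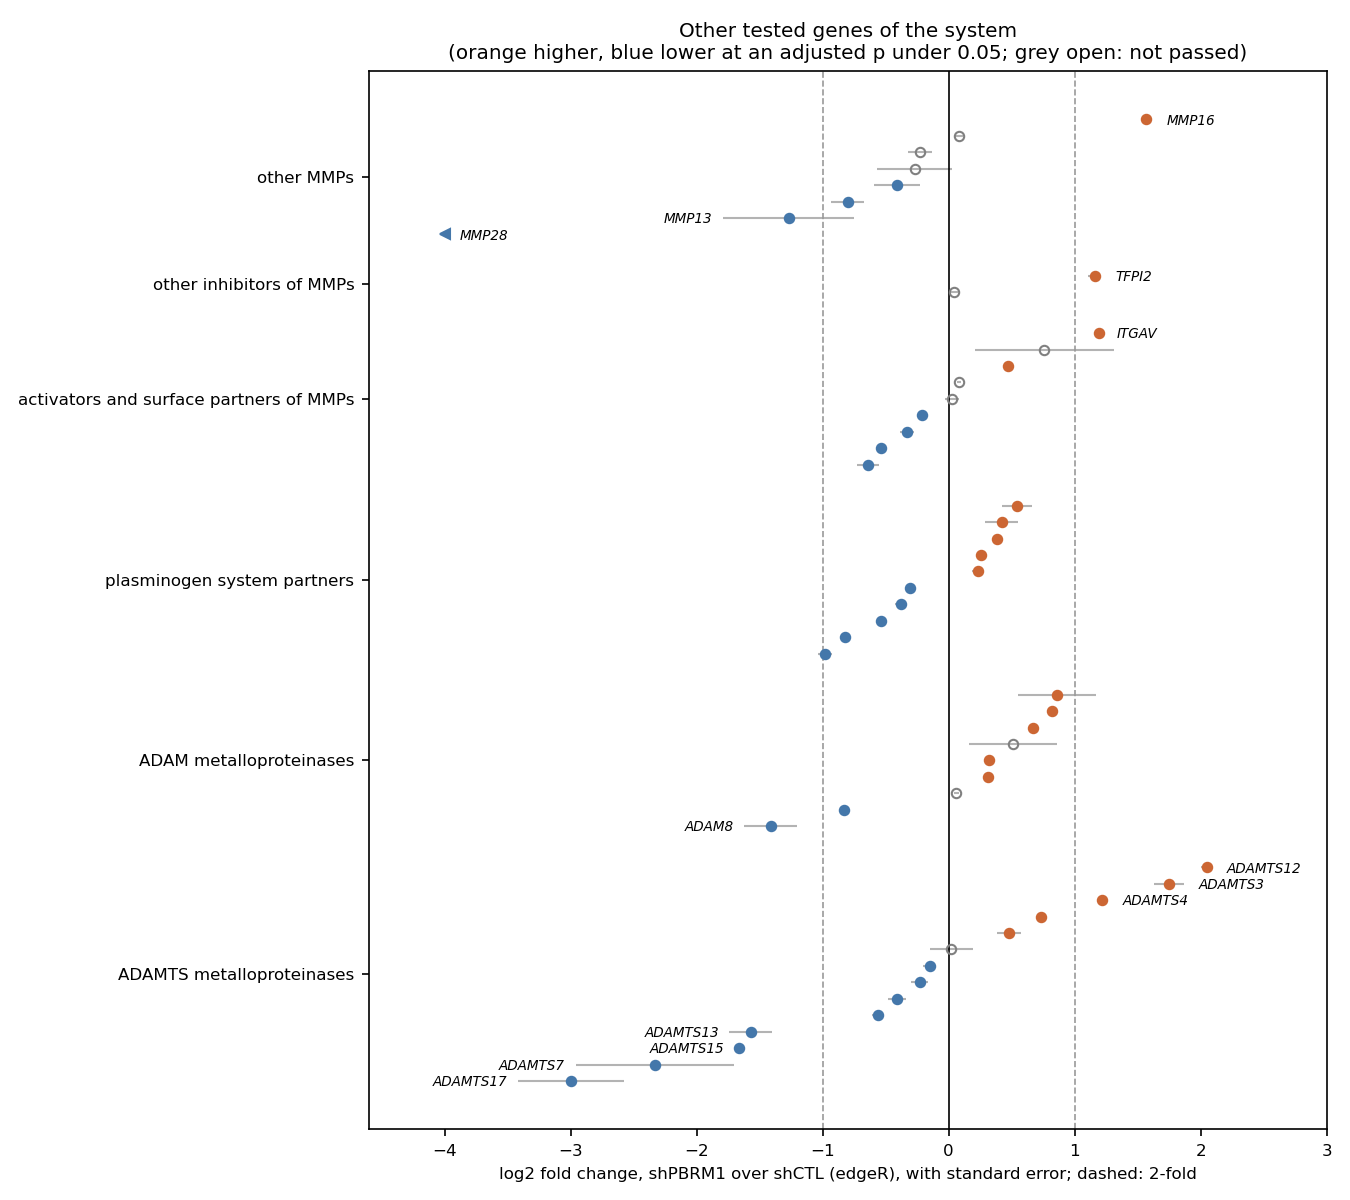
log2 fold change of shPBRM1 over shCTL with its SE for the 52 tested genes of the 6 lists, 1 gene per line (orange higher and blue lower at an adjusted p under 0.05, grey open circles not passed; dashed lines mark 2-fold, and genes past it that passed are named). The triangle for MMP28 marks a fall drawn at the edge, without an estimate, since no silenced library had a count; ADAMTS12, MMP16 and ITGAV lie at 2.05, 1.57 and 1.19.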

How the data were processed

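Total RNA from triplicate cultures was isolated with Trizol, and libraries were made with a stranded mRNA kit, per the labels. The submitters' processing notes name CASAVA 1.8.2, STAR 2.7.9a, featureCounts, DESeq2 1.24.0 and build GRCh38.p7. Annotation and strand setting are not given in the sources used here. The authors deposited a table of raw counts, not normalized, with 37887 rows named by gene symbol, of which 12608 had no count and 14 carry dates in place of symbols. In every library more rows held 2 counts (1553 to 1710) than 1 count (919 to 982). The cause was not tested, and if fragments were counted more than once, the printed counts and the bound for MMP28 are too high.

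The 15450 genes that edgeR's filterByExpr retained were tested by quasi-likelihood (glmQLFit and glmQLFTest, edgeR 4.0.16 under R 4.3.3) after TMM scaling, and p-values were adjusted by Benjamini-Hochberg. Each SE reflects how log2 CPM, with a prior of 2 counts, varied among the 3 libraries of a group. Groups came from the sample titles. Columns of the control libraries carry the cell line and a number only, and were matched to the control titles by that number. Libraries of a group differed by more than sampling noise (chi-square per degree of freedom 4.92 to 24.9). Whether the triplicates were independent experiments is not given, so p-values measure the spread between these libraries.

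Replicate numbers come from the titles. Deviations of same-numbered libraries had correlations across 5622 genes of 0.734, 0.593 and 0.419, so the number was also fitted as a block. Between libraries of different number the correlations ran from -0.671 to 0.464. The highest of these, shCTL replicate 2 with shPBRM1 replicate 3, lay above the 0.419 of the pair numbered 3. Positions, exon lengths and overlaps are those of GENCODE v29 (GRCh38), matched by symbol.

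The genes and lists were chosen with earlier results of these data known. Named genes are PBRM1, the 10 genes, 16 set partners and, per list, up to 2 rises and 2 falls with the largest change among those called at over 2-fold with a mean of at least 100 counts. Others were named outside this rule, ADAM8, MMP11 and PLG among them, and are to be read as picked with their values known. For 1 of the set partners the result is not reported here. Alternatives were DESeq2 1.42.0, other scaling factors, other filters, the block, each library left out, glmTreat, an adjusted p under 0.001, the longest transcript as length and, added after seeing the low counts, counts divided by 2. On simulated counts with 200 genes changed 4-fold, edgeR recovered 200 of them, with 2 false calls among 15480 genes. DESeq2 recovered 200, with 0 false calls among 16745. The simulation gave every gene the same fixed dispersion, changed only genes above a minimum level and held no replicate effect. It therefore checks that the code runs as meant, and does not measure accuracy for low genes or for the spread between these libraries.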

Additional observations from a re-analysis of the deposited data

How the results depend on the processing

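The direction and the call at an adjusted p under 0.05 were compared gene by gene, except under glmTreat and the adjusted p under 0.001. The 2-fold minimum was not part of this comparison. For the 9 tested genes, direction and call held in 116 of 117 values. The exception was TIMP2, which did not pass either way and had a log2 fold change of -0.03 with library size alone; RECK was at -0.01 there. MMP13, MMP28 and ADAM8 were not tested with a mean of at least 50 counts or with counts divided by 2, and have no values for these settings. Over the 31 results compared in this way, which are not all the genes named here, 388 of 397 values held. Of the others, 5 concern MMP13, which lost its call with DESeq2 and without 4 of the 6 libraries in turn (shCTL replicate 2 or 3, shPBRM1 replicate 1 or 3), and 2 concern MMP15, which passed with library size alone (adjusted p = 0.0281) and without shPBRM1 replicate 2 (adjusted p = 0.0435). The 31 results leave out MMP11, ITGB3, ADAMTS4, ADAMTS5, ADAMTS7, ADAMTS13, ADAMTS16, ADAMTS17 and the markers. Of these, MMP11, ADAMTS5, ADAMTS16 and CD14 lost their call with DESeq2 (adjusted p = 0.0859, 0.106, 0.0903 and 0.0521). MMP3 entered the calls without the filter, and with edgeR it also passed without shCTL replicate 3, shPBRM1 replicate 1 or shPBRM1 replicate 2. The 1939 genes called at over 2-fold became 1211 with a mean of at least 50 counts, where fewer genes were tested, and 1088 with glmTreat, which tests against the minimum itself; 3 of the 10 genes passed glmTreat. With each library left out, 1960 to 2062 genes were called at over 2-fold and 9413 to 9779 without that minimum, 4 to 6 and 8 to 9 of the 10 genes, and 38 to 41 of the other genes of the system. The replicate block, used because correlations between same-numbered libraries were all positive, gave 1955 genes at over 2-fold. It left 8 and 4 of the 10 genes called, gave 43 of the other genes and put PBRM1 at -1.92. No call among the 10 genes changed with it. With counts divided by 2, 1645 genes were called at over 2-fold, and 8 and 4 of the 10. Depth limits MMP3 and MMP9, with at most 20 and 111 counts in a library.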
